A study of Homo sapiens with 4 samples.

Results

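The mRNAs of the E2F and retinoblastoma family were described in the DHX36 PAR-CLIPs by 10 genes chosen by name, E2F1, E2F2, E2F3, E2F4, E2F5, E2F6, E2F7, RB1, RBL1 and RBL2, of 26490 genes in the table. Each of the 10 was listed once. E2F8, a close relative of E2F7, was not among them and is given with the partner genes. E2F proteins are transcription factors that control entry into and passage through S phase. E2F1, E2F2 and E2F3 are the classical activators, E2F4 and E2F5 act mainly with pocket proteins as repressors, and E2F6 and E2F7 repress without binding to pocket proteins. RB1 and its relatives RBL1 (p107) and RBL2 (p130) are the pocket proteins, which hold E2Fs in check until cyclin-dependent kinases phosphorylate them.

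DHX36 is a DEAH-box helicase that unwinds G-quadruplexes, stacks of guanines that form where short runs of G lie close together. PAR-CLIP crosslinks a protein to 4-thiouridine in the RNA it touches, and sequencing shows each crosslinked position as a T-to-C conversion. The libraries came from HEK293 human embryonic kidney cells, which carry the adenoviral E1A gene, whose protein binds the pocket proteins. One stable line expressed tetracycline-inducible HA-Flag-DHX36-iso2 (FH-DHX36). The other expressed HA-Flag-DHX36-iso1-E335A (FH-DHX36-E335A), a mutant without helicase activity. Both were selected T-Rex Flp-In lines that kept their own DHX36 gene. Induction lasted 15 h (tetracycline, 500 ng per ml) and irradiation at 365 nm 5 min, and the tagged protein was pulled down with an anti-FLAG antibody, with 2 replicates per line. The isoform and the mutation differ together between the lines and cannot be told apart, and no library without tagged protein was used here.

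The table gives 1 value per gene and line, so that there is no replicate spread and no test between the lines was possible. Per the paper, a cluster is a stretch of overlapping reads that hold such conversions more often than chance would give. Crosslinked reads are the reads counted in clusters. They summed to 8752127 for FH-DHX36-E335A and 2160413 for FH-DHX36, a ratio of 4.05. Values are therefore compared as shares of these totals. Intervals cover counting error alone, and PCR copies make even that too narrow.

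DHX36 is known for binding to G-rich RNA, so G-run matches in the mRNAs are shown before the values. The canonical transcripts were searched for GG, 1 to 7 bases N, GG, 1 to 7 bases N, GG, 1 to 7 bases N and GG, where each run may hold more than 2 G. The sense strand alone was searched and matches do not overlap. A match describes the letters and is not a measured binding site, since the table holds no cluster positions. E2F1, the member with the most crosslinked reads, held 8 matches in a 3′ UTR of 1255 nt on the minus strand of chromosome 20. A base N may itself be a G, which is then in lower case. The end of match 6 is thus 1 unbroken stretch of G that counts as 2 runs. The 8 matches read, in GRCh37 and 5′ to 3′, with the G runs in capitals:
E2F1 match 1, chr20:32264517-32264535: GGGcttGGaGGGaccaGGG
E2F1 match 2, chr20:32264059-32264073: GGccaGGtGGGGaGG
E2F1 match 3, chr20:32264036-32264054: GGctGGctGGGcgtgtaGG
E2F1 match 4, chr20:32263914-32263932: GGGGaGGaGGGGtgtGGGG
E2F1 match 5, chr20:32263755-32263773: GGGtGGtcagatGGtGGGG
E2F1 match 6, chr20:32263677-32263694: GGGagaGGtgagtGGgGG
E2F1 match 7, chr20:32263648-32263662: GGGcaGGaGGGGtGG
E2F1 match 8, chr20:32263435-32263453: GGGGcGGGagaGGccaaGG

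None of the E2F1 matches had 4 runs of GGG. A 3′ UTR match with 4 runs of at least GGG, the stricter form of the pattern, was found in 4 members, once each. These are shown for comparison:
E2F2, chr1:23835862-23835889, minus strand: GGGcaggtctGGGtttccaaGGGaGGGG
E2F3, chr6:20492651-20492670, plus strand: GGGGtGGGGGaGGGagaGGG
E2F4, chr16:67232408-67232430, plus strand: GGGaaGGGtGGGGtggaactGGG
E2F6, chr2:11584701-11584717, minus strand: GGGGcGGGtGGGGaGGG

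The stricter form was present in 14.2% of all 19063 canonical 3′ UTRs. Of 3′ UTRs within 20% of the same length, it was present in 20.5% for E2F2, 21.0% for E2F3, 11.8% for E2F4 and 20.7% for E2F6. Of the pocket proteins, RBL1 had 3 matches to the looser pattern in the 3′ UTR, the median for its length, and RBL2 had 1. RB1 had 1, which begins at the first base after the stop codon:
RB1, chr13:49054208-49054227, plus strand: GGatctcaGGaccttGGtGG

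All 10 members carried clusters of FH-DHX36-E335A, and 7 carried clusters of FH-DHX36. In the whole table, 34.5% of genes had an FH-DHX36-E335A cluster and 22.4% an FH-DHX36 cluster, shares that also count genes not expressed in HEK293. Of genes with an FH-DHX36-E335A cluster, 62.1% had an FH-DHX36 cluster as well. The family held 84 FH-DHX36-E335A clusters with 10608 crosslinked reads, and 21 FH-DHX36 clusters with 1803. E2F5, RB1 and RBL2 had no FH-DHX36 cluster. They had few FH-DHX36-E335A reads too, with 94 on E2F5, 37 on RB1 and 250 on RBL2. At the same share of the smaller FH-DHX36 total, this would be 23.2, 9.13 and 61.7 reads. Of the genes with FH-DHX36-E335A reads within 20% of theirs, 33.9% had an FH-DHX36 cluster for E2F5, 21.6% for RB1 and 58.2% for RBL2. The table lists reads in clusters alone, so that a value of 0 sets no limit on reads outside of clusters.

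**Figure D1:**
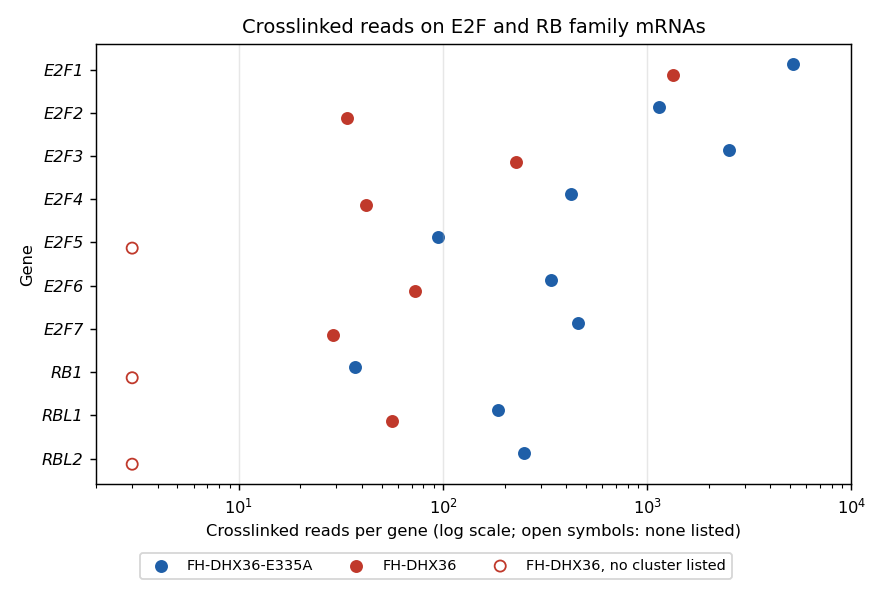
Crosslinked reads per gene on a log axis for the 10 members, with FH-DHX36-E335A in blue and FH-DHX36 in red. Open symbols, set at the left edge, mark the 3 members with no FH-DHX36 cluster, and E2F1 is the highest in both PAR-CLIPs with 5153 and 1341 reads.

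The activators held most of the reads. E2F1, E2F2 and E2F3 together had 8824 of the FH-DHX36-E335A reads, or 83.2% of those on the family, and 1603 of the FH-DHX36 reads, or 88.9%. E2F4 and E2F5 held 4.86% and 2.33%, E2F6 and E2F7 held 7.49% and 5.66%, and the pocket proteins 4.46% and 3.11%. These are reads per gene and are not corrected for length or RNA abundance. The median over members with a cluster was 379.5 FH-DHX36-E335A reads, and that over all genes with a cluster 326. For FH-DHX36 these medians were 56.0 and 121.

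E2F1, the founding E2F, had 5153 FH-DHX36-E335A reads, more than 96.9% of genes with a cluster, and 1341 FH-DHX36 reads, more than 94.5%. Its RNA was also abundant, at 26.7 on the scale of the RNA-seq abundance (FPKM) that is recovered from reads and NXPM. NXPM, the crosslinked reads scaled to the library total and divided by that abundance, was 22.0 for FH-DHX36-E335A and 23.2 for FH-DHX36. The 3′ UTR (chr20:32263283-32264537) held 4834 of the 4886 exonic FH-DHX36-E335A reads and 1171 of the 1203 exonic FH-DHX36 reads, or 98.9% and 97.3%. With FH-DHX36-E335A these 3′ UTR reads were listed as 1 cluster, whereas the fewer FH-DHX36 reads were split into 7 clusters. Of 2181 genes with exactly 1 FH-DHX36-E335A cluster in the 3′ UTR, E2F1 had the second-highest number of reads in it (position 2), against a median of 42.0. In total E2F1 had 5 clusters for FH-DHX36-E335A and 11 for FH-DHX36. It was the 1 member with more FH-DHX36 clusters, as were 5.17% of the 5669 genes with clusters in both PAR-CLIPs.

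E2F3 had the most FH-DHX36-E335A clusters of the family, 23, which is more than 96.7% of genes with a cluster. Its 3′ UTR on chromosome 6 (chr6:20490662-20493945, plus strand) held 18 of them with 1870 reads, or 104 reads per cluster. The CDS held 3 clusters with 108 reads and introns 1 cluster with 16. FH-DHX36 had 5 clusters and 228 reads on E2F3, with 187 reads in 3 clusters of the 3′ UTR. NXPM was 53.3 with FH-DHX36-E335A, the highest of the family, and 19.5 with FH-DHX36. With FH-DHX36-E335A, E2F3 thus carried many clusters of moderate depth and E2F1 few with many reads. As cluster positions are not listed, few clusters cannot be told apart here from neighbouring sites joined into 1 cluster.

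E2F2, the third activator, had 16 FH-DHX36-E335A clusters with 1147 reads. Of these, 10 clusters with 922 reads lay in the 3′ UTR and 4 with 161 reads in the CDS. FH-DHX36 had 1 cluster of 34 reads, in the CDS. NXPM was 41.6 and 5.00. The 3′ UTR of E2F2 thus had no FH-DHX36 cluster. At the FH-DHX36-E335A share the whole gene, CDS included, would have had 283 FH-DHX36 reads. The part of these in the 3′ UTR would be smaller, as FH-DHX36-E335A had 922 of its 1147 reads there, in 10 clusters. The smallest FH-DHX36 read number listed for a gene was 6. Of genes with FH-DHX36-E335A reads close to the 1147 of E2F2, by the range used above, 91.1% had an FH-DHX36 cluster. That share counts clusters of any annotation, and E2F2 had one in the CDS. Whether the smaller FH-DHX36 total left clusters in the 3′ UTR of E2F2 uncalled was not tested.

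E2F4, the most abundant of the 10 RNAs at 34.4, had 422 FH-DHX36-E335A reads in 8 clusters. The 3′ UTR held 174, the CDS 94, and 1 cluster outside the 4 listed annotations 154. Its 42 FH-DHX36 reads were in 1 intronic cluster. With an NXPM of 1.40 and 0.566, E2F4 was above 23.4% and 9.61% of the genes with a cluster. The related E2F5 had 80 FH-DHX36-E335A reads in a 3′ UTR cluster and 14 in a CDS cluster, with an NXPM of 2.38. Relative to its RNA abundance E2F4 thus had few reads, although its 422 reads were above the 326 of the median gene with a cluster.

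E2F6 had 337 FH-DHX36-E335A reads, 266 of them in 4 clusters of the 3′ UTR and 71 in the CDS, and 73 FH-DHX36 reads in 1 cluster of the 3′ UTR. Its NXPM of 11.1 and 9.77 was close in both PAR-CLIPs. E2F7 had 458 FH-DHX36-E335A reads in 10 clusters, with 368 in the 3′ UTR and 90 in the CDS, and 29 FH-DHX36 reads in 1 CDS cluster. Its RNA was the least abundant of the members at 2.28, and NXPM was 22.9 and 5.88.

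The pocket proteins had fewer reads than the activators. RBL1 had 186 FH-DHX36-E335A reads in 7 clusters, and had the largest CDS share of the members, with 149 reads in 5 CDS clusters against 37 in 2 clusters of the 3′ UTR. The 1 FH-DHX36 cluster on RBL1, of 56 reads, lay outside the 4 listed annotations. On RBL2, 184 reads lay in the 3′ UTR, 54 in coding sequence and 12 in an intron. RB1 had the fewest, with 21 reads in 1 CDS cluster and 16 in 1 cluster of the 3′ UTR. NXPM with FH-DHX36-E335A was 1.17 for RB1, 2.36 for RBL1 and 7.19 for RBL2. RB1 was above 20.5% of the genes with a cluster on this scale. RNA abundance was 3.63, 8.99 and 3.97 in the same order, so that RB1 and RBL2 had similar abundance and differed in reads. Protein-coding genes overlap RB1 (LPAR6 and RCBTB2), RBL2 (AKTIP) and E2F5 (RBIS) on the opposite strand, and whether strand was used in the counting is not given in the sources used here.

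**Figure D2:**
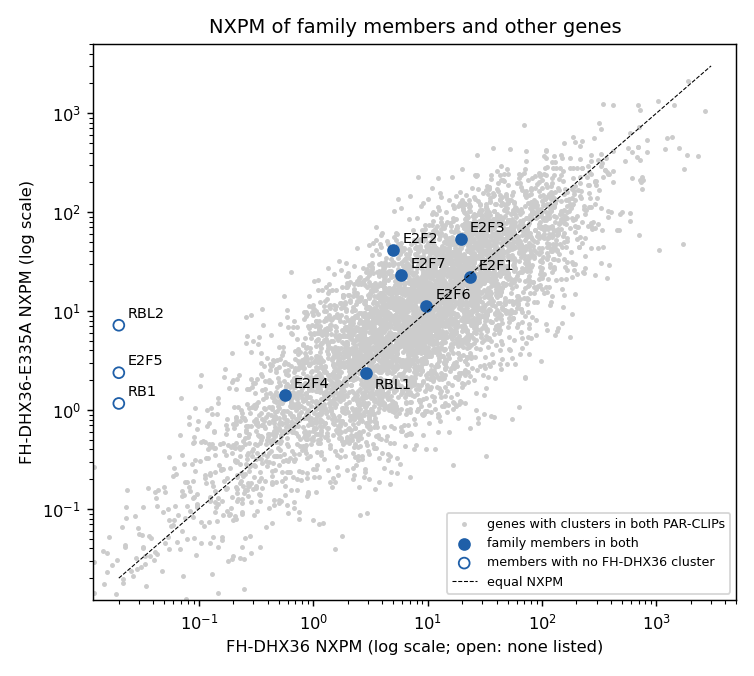
NXPM with FH-DHX36 (x axis) and FH-DHX36-E335A (y axis), both on log axes, for genes with clusters in both PAR-CLIPs (grey, those at an abundance of 0 left out) and for the members (blue). E2F2, E2F3, E2F4 and E2F7 lie above the dashed line of equal values and E2F1, E2F6 and RBL1 close to it, while open symbols mark members with no FH-DHX36 cluster.

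By NXPM, which is not corrected for length, 6 members were above the median gene for FH-DHX36-E335A and 3 for FH-DHX36. The members' median NXPM was 9.16 and 5.88, and that of all genes with a cluster 5.66 and 7.84. Per kb of 3′ UTR, E2F1 had 3852 FH-DHX36-E335A reads, E2F3 had 569 and E2F2 had 268. E2F4 followed with 219, whereas RBL2, E2F7, E2F6 and E2F5 lay between 136 and 122, and RBL1 and RB1 had 15.4 and 8.80. The median of all genes with a 3′ UTR cluster was 128 reads per kb. Without replicates, the order of neighbours such as RBL2 and E2F7 cannot be resolved. Divided by RNA abundance as well, E2F1 had 144, E2F3 had 105 and E2F2 had 85.1, above 90.2%, 86.3% and 83.0% of the genes with a 3′ UTR cluster. E2F4 was at 6.37, and RB1 and RBL1 were at 2.43 and 1.71.

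Most exonic reads on the family lay in the 3′ UTR. All 10 members had an FH-DHX36-E335A cluster there, compared with 27.0% of all genes, and 3 had an FH-DHX36 cluster there, compared with 11.7%. In the CDS it was 10 members compared with 22.5%, and 4 members compared with 10.5%. The closer base is genes with a cluster. Of 9131 such genes for FH-DHX36-E335A, 7162 had one in the 3′ UTR and 5949 in the CDS. For FH-DHX36 it was 3112 and 2781 of 5930 genes. Beside these, 10 and 7 members are too few to call the counts particular to the family. With FH-DHX36-E335A the 3′ UTR share of exonic reads was 91.5% (95% Wilson interval from 90.9% to 92.0%), compared with 71.9% over all genes. In 8 of 10 members most exonic reads lay there, as in 64.0% of all genes with exonic reads. With FH-DHX36 the share was 92.7% (91.3% to 93.9%) compared with 51.4%, and it held for 3 of the 5 members with exonic reads and for 47.8% of such genes. E2F1 weighed most in the sums. Without it the shares were 83.7% and 76.5%, and the median member with FH-DHX36-E335A had 79.6% against 73.6% for the median gene. By clusters in place of reads, the 3′ UTR held 53 of 76 exonic clusters, or 69.7%, and 11 of 15, or 73.3%. No member had a cluster in the 5′ UTR in either PAR-CLIP, compared with 7.03% of all genes for FH-DHX36-E335A and 4.16% for FH-DHX36. Of genes with a cluster, 20.4% had one there for FH-DHX36-E335A and 18.6% for FH-DHX36, and 10 and 7 genes are too few to call the 0 particular to the family. Intronic clusters were found on 3 members in each PAR-CLIP, and on 23.9% and 24.3% of genes with a cluster.

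**Figure D3:**
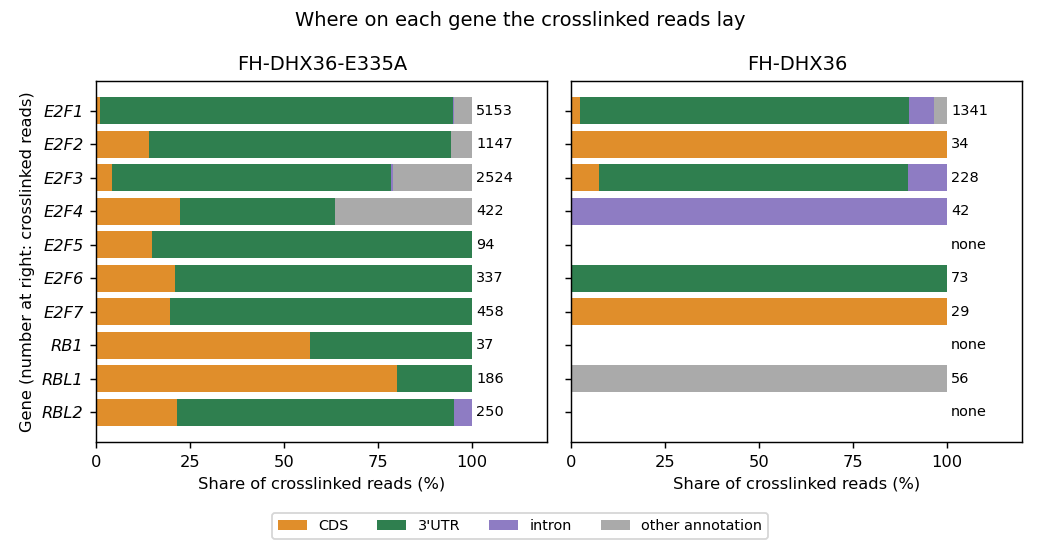
Share of the crosslinked reads of each member in the CDS, 3′ UTR, introns and other annotations, for FH-DHX36-E335A (left) and FH-DHX36 (right), with the number of reads at the end of each bar. Green, the 3′ UTR, takes the largest part on 8 members at the left, and RBL1 and RB1 have most reads in the CDS.

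The family took a larger share of reads with FH-DHX36-E335A than with FH-DHX36, at 0.121% (0.119% to 0.124%) and 0.0835% (0.0797% to 0.0874%), a ratio of 1.45. E2F1 contributed almost equally to both, and without it the shares were 0.0623% and 0.0214%, a ratio of 2.91. Reads are listed in clusters alone, and E2F5, RB1 and RBL2 count as 0 for FH-DHX36. Scaling to totals does not correct for clusters left uncalled in the smaller FH-DHX36 total, and their part in these ratios was not tested. For all genes in both PAR-CLIPs, the median log2 ratio of read shares, FH-DHX36-E335A over FH-DHX36, was 0.12, and log2 ratios are given here relative to it. E2F2 had a log2 ratio of 2.94 (95% counting interval from 2.45 to 3.48), E2F7 of 1.84 (1.30 to 2.44), E2F3 of 1.33 (1.14 to 1.53) and E2F4 of 1.19 (0.73 to 1.69). E2F6 was at 0.07 (-0.30 to 0.46) and RBL1 at -0.40 (-0.84 to 0.05). E2F1 was at -0.19 (-0.28 to -0.11). Without the adjustment to the median gene, E2F1 was at -0.08 on all reads and at 0.02 on exonic reads scaled to exonic totals. In all, 5 of the 7 members in both PAR-CLIPs had a higher read share with FH-DHX36-E335A, as did 53.4% of all such genes. The ratio of E2F2 was above that of 97.4% of these genes and that of E2F7 above 89.1%. Both rest on 1 FH-DHX36 cluster, of 34 and 29 reads. All of these FH-DHX36 reads lay in the CDS, where FH-DHX36-E335A had 161 reads on E2F2 and 90 on E2F7, whereas most FH-DHX36-E335A reads on both lay in the 3′ UTR. The ratios of E2F4 and RBL1 likewise compare different annotations, since neither had exonic FH-DHX36 reads. The ratios of these 4 members are therefore not ratios within 1 region. As the RNA abundance behind both NXPM values of a gene was the same, the ratio of its NXPM values equals the ratio of its read shares before the adjustment to the median gene.

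Matches to the G-run pattern were counted in all 3 parts of the mRNA. In the 3′ UTR there were 38, on 9 of 10 members, with 11 on E2F2, 8 on E2F1 and 7 on E2F3. E2F4, E2F6 and RBL1 had 3 each, E2F7, RB1 and RBL2 had 1 each, and E2F5 had 0. Of all canonical 3′ UTRs, 64.7% held a match, and of those within 20% of the length of E2F1 73.9%, with a median of 2. For lengths near those of E2F2 and E2F3 the median was 4. E2F7 had 1 match where 3′ UTRs of like length had a median of 3. The counts include matches where the base between 2 runs is itself a G, as in this E2F7 match. The 5′ UTRs of 9 members held a match, with 5 on E2F6, although no member had a cluster there. Across all canonical transcripts 53.8% of 5′ UTRs and 84.4% of CDSs held a match.

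**Figure D4:**
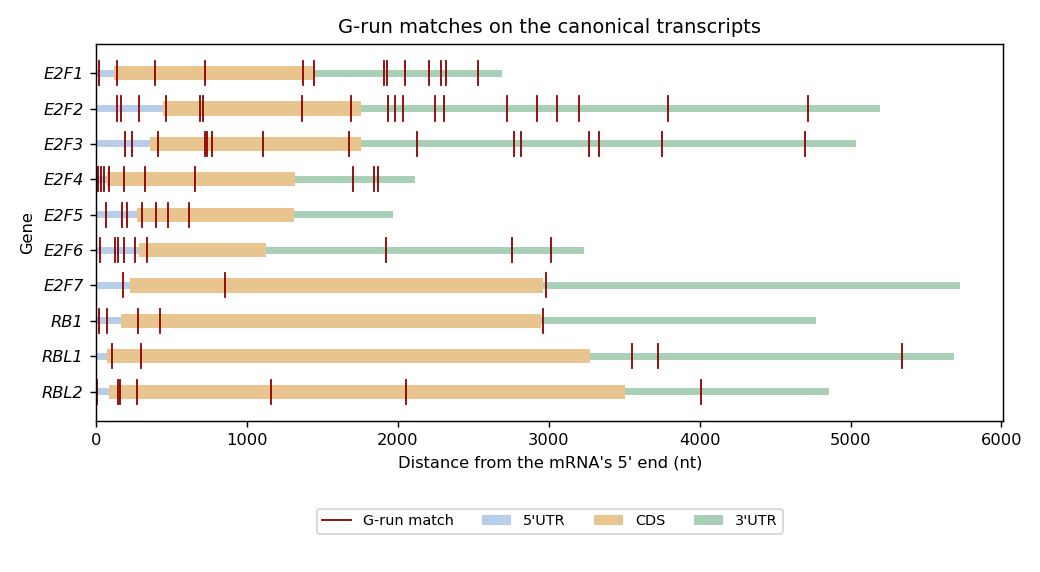
Canonical transcripts of the 10 members to scale in nt from the 5′ end, with the CDS as the thick bar and each G-run match as a red line. E2F1, E2F2 and E2F3 carry 8, 11 and 7 matches in the 3′ UTR, and E2F5 none.

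Per kb of 3′ UTR, E2F1 had 6.37 matches, more than 92.8% of genes with a 3′ UTR cluster. E2F4 had 3.77, E2F2 had 3.20 and E2F3 had 2.13, and the other members had 1.43 or fewer. Over the 10 members, Spearman's rho of matches per kb with FH-DHX36-E335A 3′ UTR reads per kb was 0.745, and with reads per kb and unit of abundance 0.442. Without E2F1 they were 0.650 and 0.233. Over the 6797 genes with a 3′ UTR cluster and a known length and abundance, rho was 0.0821 and 0.115. Genes are not independent replicates, both measures are divided by the same length, and these values are a description of 10 chosen genes. E2F5 and E2F4 show the spread, as E2F5 had 27.1 reads per kb and unit of abundance with no match, and E2F4 had 6.37 with 3.77 matches per kb.

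**Figure D5:**
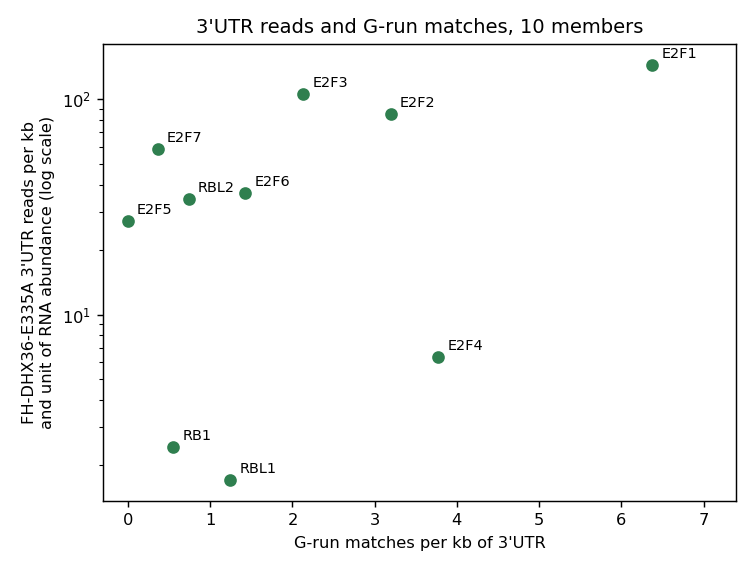
G-run matches per kb of 3′ UTR (x axis) and FH-DHX36-E335A 3′ UTR reads per kb and unit of RNA abundance (y axis, log scale), with 1 point per member. E2F1 is highest on both axes, at 6.37 and 144, and E2F4 lies low for its number of matches.

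Genes that work with the family were counted in 3 lists. For comparison, 34.5% of all genes had an FH-DHX36-E335A cluster and 22.4% an FH-DHX36 cluster, with unexpressed genes counted. The median NXPM of all genes with a cluster was 5.66 and 7.84. Of 10 partners, which include E2F8 and the MuvB core with its MYB partner, 8 had an FH-DHX36-E335A cluster and 3 an FH-DHX36 cluster, with a median NXPM of 6.74 and 1.58 on those that had one. TFDP1, the dimerization partner of the E2Fs, had 3007 and 393 reads, RBBP4, a histone-binding subunit, 1270 and 55, and LIN9, a MuvB subunit, 957 and none listed. Of the FH-DHX36-E335A reads, 1512 on TFDP1 and 185 on LIN9 were exonic, and 1042 and 695 lay in introns. Of the FH-DHX36 reads on TFDP1, 296 were intronic. All reads on RBBP4 were exonic. E2F8 had 102 FH-DHX36-E335A reads, 53 of them in a 5′ UTR cluster, and no FH-DHX36 cluster. LIN54 and TFDP2 in this list also had a 5′ UTR cluster, with 147 and 120 FH-DHX36-E335A reads. As said above, 10 members are too few to call its absence particular to the family. LIN37 and TFDP3 had no cluster in either.

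Of 15 cyclins, kinases that phosphorylate the pocket proteins and inhibitors of these kinases, 14 and 13 had a cluster. CDKN1C had none in either PAR-CLIP. The median NXPM was 6.39 for FH-DHX36-E335A and 3.67 for FH-DHX36. CCND2 and CCND1, D-type cyclins that start the phosphorylation of pocket proteins, had 15341 and 7787 FH-DHX36-E335A reads, of which 13899 and 7764 were in the 3′ UTR, and 2841 and 1157 FH-DHX36 reads. CDKN1B (p27), an inhibitor of cyclin-dependent kinases, had 3798 and 265. NXPM was 205 and 154 for CCND2, 108 and 64.9 for CCND1, and 223 and 63.2 for CDK6. All were above those of the 10 members. The RNA abundance of CDK6 was low, at 0.980.

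Of 19 genes known to respond to E2Fs, 19 and 16 had a cluster, with a median NXPM of 5.96 and 3.28. MCM3 and MCM7, subunits of the replicative helicase, had 8557 and 4350 FH-DHX36-E335A reads and 664 and 740 FH-DHX36 reads. Of the FH-DHX36-E335A reads, 1857 on MCM3 and 3090 on MCM7 were exonic, and 6616 and 1260 lay outside the 4 listed annotations. Of the FH-DHX36 reads, 254 on MCM3 and all on MCM7 were exonic. CDC25A, a phosphatase that activates cyclin-dependent kinases, had 7437 FH-DHX36-E335A reads, 7420 of them in the 3′ UTR, and 652 FH-DHX36 reads, all in the 3′ UTR. Of the genes with clusters in both PAR-CLIPs, 2 of 3 partners, 10 of 13 kinases and inhibitors and 13 of 16 E2F-responsive genes had a higher read share with FH-DHX36-E335A, beside the 53.4% of all genes given above.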

How the data were processed

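Crosslinked reads and clusters were deposited by the authors as counts per gene, without normalization, in total and split into 4 annotation categories (both UTRs, CDS and introns). NXPM was deposited by the authors as a score, crosslinked reads relative to the sum over the PAR-CLIP or the region, divided by mRNA abundance. Per the paper, reads were mapped to hg19, clusters were called with PARalyzer in PARpipe at default settings and annotated with GENCODE v19, and abundance came from Cufflinks. The submitters' processing notes name bcl2fastq 2.17.1. Versions of PARalyzer, PARpipe and Cufflinks are not given in the sources used here. In the table, the 2 replicates per line share 1 column, so planned tests between lines were not run. All 30 value columns belong to the 2 lines.

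RNA abundance was recovered as scaled reads over NXPM minus 0.001. Reads outside the 4 categories were taken by subtraction. Lengths, positions and sequences came from GENCODE release 44 on GRCh37 (the build of hg19), with canonical protein-coding transcripts, and the stop codon counted with the CDS. Matches within 1 exon were equal to the genome. Ratio intervals are exact and conditional on the sum of reads. The search was tested on simulated sequences and the recovery on NXPM simulated with its own formula (Python 3.11.15, pandas 2.3.3, scipy 1.17.1). The recovery test thus checks the code, not whether the deposited NXPM follows that formula and constant. The members, lists, tests and motif were chosen with earlier results of these data known. All 10 members are named, and 3 genes per list by FH-DHX36-E335A reads. E2F8, LIN54, TFDP2, CDK6 and the genes without a cluster were named after their values were seen. Alternatives were other denominators, clusters in place of reads, leaving out E2F1, other scalings, other G-run patterns and the longest transcript.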

Additional observations from a re-analysis of the deposited data

How the results depend on the processing

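No paired analysis was possible because the table holds 1 column per measure and line, which also leaves no replicate to take out. With exonic reads over exonic totals, the family's share of reads was 0.147% for FH-DHX36-E335A and 0.0955% for FH-DHX36, and without E2F1, chosen after seeing the data, 0.0623% and 0.0214%. The 3′ UTR share of exonic reads was 69.7% and 73.3% by clusters, 82.5% and 79.4% over all reads of the members, and 83.7% and 76.5% without E2F1. With at least 2 clusters required, 2 members were left with FH-DHX36. The stricter G-run pattern left 4 matches in the 3′ UTRs, on 4 members, and loops of up to 12 nt gave 72 matches. The log2 ratio of E2F1, -0.08 on shares of all reads, was 0.02 on exonic reads and -0.19 relative to the median gene. The other 30 recomputed values stayed within the counting interval, or within 1.5 times for counts. Not all of them could move. Ratios of NXPM equal the ratios of read shares, and the longest transcripts had 3′ UTRs of the same lengths. The rule for counts also let 7 members with an FH-DHX36 cluster fall to 5 with an exonic one. Members above the median gene for FH-DHX36 fell from 3 by NXPM to 2 by crosslinked reads. Of the 7 members with an FH-DHX36 cluster, 5 had 1 cluster with 29 to 73 reads, and their FH-DHX36 values rest on it.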

Other observations

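Part of the reads on the family lay outside the 4 listed annotations (UTRs, CDS and introns). For FH-DHX36-E335A there were 995 such reads in 5 clusters, or 9.38% of the family's reads, with 530 in 1 cluster on E2F3, 247 in 1 on E2F1, 154 in 1 on E2F4 and 64 in 2 on E2F2. For FH-DHX36 there were 104 in 2 clusters, 56 on RBL1 and 48 on E2F1. Their annotation is not named in the table. The share was larger on some E2F-responsive genes, with 6616 of 8557 FH-DHX36-E335A reads on MCM3 and 2207 of 3419 on TYMS, the thymidylate synthase, which were chosen after their values were seen. In the same list, CDC25A and MCM4 had 0 such reads.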
